A study of Mus musculus with 6 samples.

Results

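The LKB1 complex and the AMP-activated protein kinase (AMPK) were followed through the RNA of their subunits in mouse fetal liver. The 10 genes were taken by name from a table of 34542 genes: Stk11, Strada, Stradb, Cab39 and Cab39l for the LKB1 complex, and Prkaa1, Prkaa2, Prkab1, Prkab2 and Prkag1 for AMPK. All 10 also have exon and intron counts in a table of 15543 genes. The KO group held 3 fetal liver samples from C57BL/6J embryos with the genotype miR-144/451-/-, and the WT group held 3 from wild-type C57BL/6J embryos. The labels name neither the embryonic day nor the number of embryos behind a library, so p-values here measure the spread between these samples, which may be technical. Polyadenylated RNA of fetal liver cells was sequenced, and the comparison asks which transcripts differ when both microRNAs are missing.

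LKB1, encoded by Stk11, is a kinase that becomes active when it binds a STRAD pseudokinase (Strada or Stradb) and the scaffold protein MO25 (Cab39 or Cab39l). The active complex phosphorylates the catalytic alpha subunit of AMPK (Prkaa1 or Prkaa2), which works together with a beta subunit that binds glycogen (Prkab1 or Prkab2) and a gamma subunit that senses AMP and ATP (Prkag1 among them). AMPK restrains energy-consuming synthesis when ATP is short, and mice without Prkaa1 or Prkag1 are known for short-lived red cells. In human glioma cells, CAB39 is a known target of miR-451a.

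The sequences behind the comparison are the mature microRNAs of the deleted locus, shown because each pairs through its seed, bases 2 to 8 from its 5' end (capitals). They are RefSeq entries of build GRCm38.p6, on the plus strand at chr11:78073186-78073207 for miR-451a and chr11:78073047-78073066 for miR-144-3p.
miR-451a: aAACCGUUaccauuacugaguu
miR-144-3p: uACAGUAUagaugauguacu

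Seed complements were searched on the transcript strand of every gene's longest 3' untranslated region (UTR): AACGGTT for miR-451a, ATACTGT for miR-144-3p and TGATATC for miR-144-5p, the other arm of the miR-144 hairpin. A 7mer-m8 site is the complement alone, and an 8mer is the complement followed by A, counted once. Cab39 was the 1 member with a miR-451a site, against 1.89% of 20361 genes with an annotated 3' UTR. It is a 7mer-m8 site that starts at base 111 of a UTR of 2355 bases. Cab39 lies on the plus strand at chr1:85793441-85851576 in GRCm38. Strada was the 1 member with miR-144-3p sites, against 12.5% of genes, and 0 members had a miR-144-5p site, against 6.71%. Strada carries an 8mer from base 91 and a 7mer-m8 from base 2649 of a UTR of 3037 bases. The longest coding transcript of Strada has 3386 bases, so this UTR belongs to a transcript with a short coding part. Whether both sites lie in the 3' UTR of other Strada transcripts was not tested. When the weaker 7mer-A1 site (TACTGTA) was admitted, Prkaa1 and Prkaa2 each had 1 match to miR-144-3p, and 19.5% of all genes had a match. The Cab39 and Strada windows below come from GENCODE transcripts of GRCm38, written as DNA with the site in capitals.
Cab39, miR-451a 7mer-m8: atctgctgttaagtgAACGGTTtttcat
Strada, miR-144-3p 8mer: tttaaagtcactgtcATACTGTAgttac
Strada, miR-144-3p 7mer-m8: gtccagctgagacacATACTGTcaagtt

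**Figure D1:**
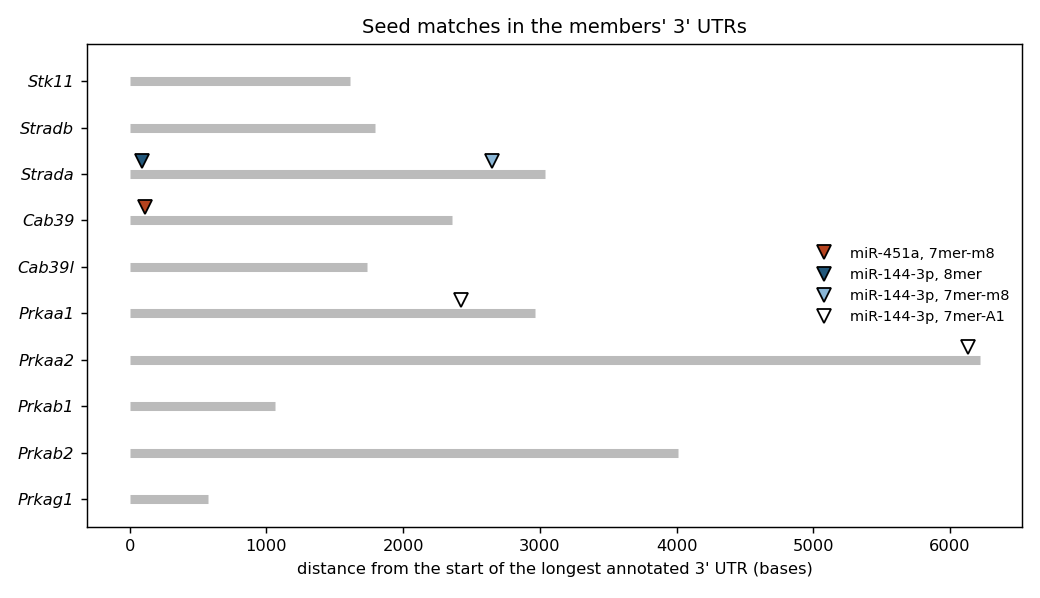
Position of each seed match (triangles) along the longest annotated 3' UTR of the 10 members (grey bars, x axis in bases from the UTR start). The miR-451a match of Cab39 begins at base 111, and the 8mer of Strada begins at base 91.

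The libraries held 40392139 to 44700229 counts in KO and 24659978 to 36082084 counts in WT. Mir144 had 1, 1 and 0 counts in KO and 51, 47 and 29 in WT, and Mir451 had 3, 2 and 4 in KO and 323, 446 and 418 in WT, which matches the labels. Erythroid markers were abundant and 0 of 12 were at 0 in any library. Their summed level was 18934 to 22270 CPM (counts scaled to a common library size, after TMM scaling) in KO and 24785 to 34125 CPM in WT, without overlap. All 12 had a log2 change below 0, as did 8331 of 15105 tested genes. Of the 12, 2 (Epb4.2 and Tfrc) passed as lower in the test described next, beside 1.45% of tested genes. Before adjustment 8 were lower at p under 0.05 by edgeR, beside 8.78% of tested genes. Without overlap between groups 8 were lower, beside 10.9%. Summed levels of 20 hepatocyte markers overlapped between groups, at 13478 to 48226 CPM in KO and 9166 to 59022 CPM in WT, and were highest in KO replicate 6 and WT replicate 2. Of the hepatocyte, macrophage, megakaryocyte, neutrophil and endothelial marker lists, 0 genes passed by edgeR, with an unadjusted p under 0.05 for 1 endothelial gene. Log2 changes were nevertheless below 0 for 10 of 10 neutrophil markers (median -0.60, against -0.54 for the erythroid list) and 10 of 11 macrophage markers (median -0.16), and above 0 for 8 of 8 endothelial markers (median 0.17). The part of these cell types in the members' values was not tested. In such mixed tissue, fewer cells of a type and less RNA per cell cannot be told apart.

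Cab39 rose in KO livers and was the 1 of the 10 members to pass the test. It measured 176, 190 and 174 CPM in KO replicates 4 to 6, against 144, 122 and 128 CPM in WT replicates 1 to 3. Every KO library stood above every WT library, and the spread within a group was smaller than the gap between the means. The means were 180 ± 8.30 CPM in KO and 131 ± 11.3 CPM in WT (SD), from 7204 to 8287 and 3075 to 4791 counts. The change was 1.38-fold, a log2 change of 0.46 (SE 0.09, adjusted p = 0.0481, edgeR's quasi-likelihood test with Benjamini-Hochberg adjustment over all tested genes). Of 15105 tested genes 3.28% passed, 276 higher in KO (1.83%) and 219 lower (1.45%), and under library size alone 551 were higher and 250 lower.

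The size of the Cab39 change was steadier than its call. It was 0.41 to 0.53 when a library was left out, and 0.55 when counts were scaled by library size alone. The adjusted p was 8.8e-05 by DESeq2, where 8.66% of all genes passed, and 0.0309 by edgeR without WT replicate 2, where 9.77% did. It was above 0.05 by edgeR without KO replicate 4 (0.0850), KO replicate 5 (0.108), KO replicate 6 (0.0683), WT replicate 1 (0.107) or WT replicate 3 (0.207). In those fits 0.17%, 0.0782%, 0.645%, 0.0904% and 0.0969% of all genes passed, in that order. It also missed the threshold without the filter on low counts (0.0526, edgeR), where 1.83% of genes passed, and by limma-voom (0.0557), where 3.24% did.

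Intron counts were taken here to stand for RNA not yet spliced, although the sources used do not give the intron definition. They showed no such gap for Cab39. Its introns measured 66.8, 70.2 and 49.2 CPM in KO and 78.9, 66.9 and 47.9 CPM in WT, a log2 change of -0.06 (SE 0.22, adjusted p = 0.992, edgeR). The groups overlapped throughout, and the sign turned to 0.09 without KO replicate 6 and 0.11 without WT replicate 1. Introns took 8.41%, 6.00% and 5.43% of the Cab39 exon plus intron counts in KO, against 9.91%, 9.77% and 9.90% in WT. The WT shares were almost equal to one another, and each KO share lay below them, although introns took 17.0% to 21.3% of all such counts in KO and 16.9% to 23.4% in WT. How many other genes separate the groups by intron share was not counted. In 1 model of both regions the exon change minus the intron change of Cab39 was 0.51 (SE 0.21). That difference did not pass (unadjusted p = 0.0434, adjusted p = 1, edgeR interaction test). Of 11100 genes edgeR called 0 (0%), with 3.17% at an unadjusted p under 0.05. Without WT replicate 3 edgeR called 44 genes higher and 106 lower, and Cab39 was at 0.73 (adjusted p = 0.0944, edgeR). DESeq2 called 39 of 10884 genes (0.358%), and 0 members were called in any of these fits.

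**Figure D2:**
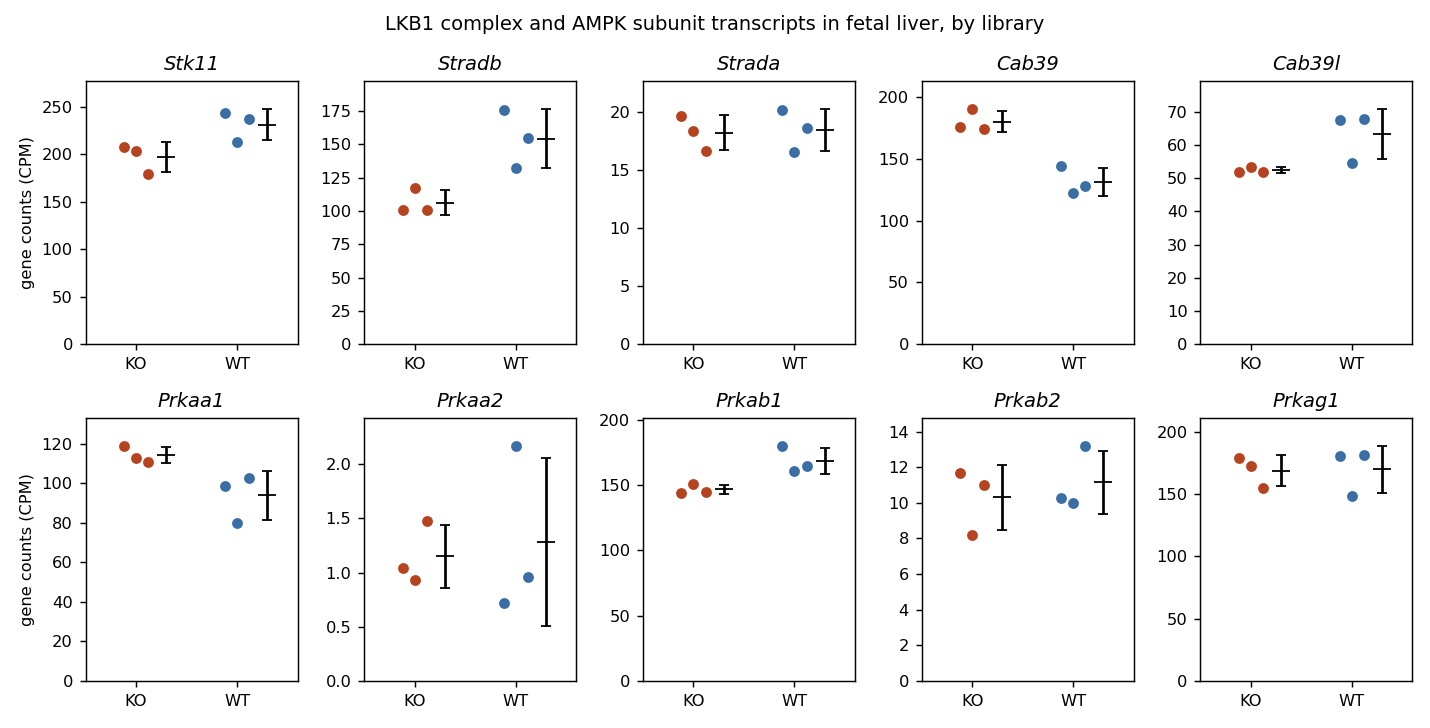
Gene counts (CPM) of the 10 members in each library, KO left of WT, with points for libraries and a bar for the mean and SD of 3. The 3 KO points of Cab39 (174 to 190 CPM) lie above the 3 WT points (122 to 144 CPM), and those of Stradb (101 to 117 CPM) lie below (132 to 176 CPM).

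Cab39l encodes MO25 beta, the other scaffold, and its 3' UTR held no match. It measured 52.0, 53.4 and 51.7 CPM in KO, against 67.5, 54.7 and 67.7 CPM in WT. The KO libraries were nearly level and stood below all WT libraries, though WT replicate 2 came close to them. The log2 change of -0.27 (SE 0.10) did not pass (adjusted p = 0.243, edgeR). It passed without WT replicate 2 (-0.37, adjusted p = 0.0188, edgeR), a fit that called 9.77% of all genes. Cab39l shares exonic positions with Cdadc1 on the opposite strand, which measured 27.4 ± 1.19 CPM in KO and 27.5 ± 4.12 CPM in WT, and its reads are uncertain to that extent.

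The values of Cab39 and Cab39l pointed in opposite directions, and their proportion is given here as a description, with no test. Per kilobase of annotated exon, Cab39 made up 76.6%, 77.4% and 76.5% of the summed level of both genes in KO, against 67.3%, 68.3% and 64.6% in WT. This share depends on neither library size nor scaling. No KO library overlapped a WT library, which follows from the separate values of both genes and adds no further evidence. In raw counts Cab39 exceeded Cab39l 3.38 to 3.55 times in KO and 1.89 to 2.23 times in WT. The summed level of both genes was 33.1 ± 1.31 CPM per kb in KO and 27.8 ± 2.49 CPM per kb in WT (SD). With the longest coding transcript as the length the shares were 73.3% in KO and 62.3% in WT.

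Stradb, the beta form of the STRAD pseudokinase, had the lowest log2 change of the members. It measured 101, 117 and 101 CPM in KO, against 176, 132 and 155 CPM in WT. All KO libraries were below all WT libraries, and the WT libraries spread more widely than the KO ones. The log2 change was -0.54 (SE 0.12), a 0.689-fold level, and it did not pass (adjusted p = 0.0816, edgeR). By DESeq2 Stradb passed as lower (-0.53, adjusted p = 0.00281), where 4.32% of all genes were lower. By edgeR Stradb passed without WT replicate 2 (-0.64, adjusted p = 0.0171), a fit that called 9.77% of all genes. Its introns were in the same direction at 217, 269 and 196 CPM in KO and 309, 377 and 250 CPM in WT, with overlap (log2 change -0.46, SE 0.19, adjusted p = 0.431, edgeR). The exonic and intronic changes differed by -0.08 (SE 0.24).

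The order of the libraries by Stradb level was close to their order by erythroid markers. The summed level of the 12 markers was 22270, 19754 and 18934 CPM in KO replicates 5, 4 and 6, and 34125, 30106 and 24785 CPM in WT replicates 1, 3 and 2. Stradb measured 117, 101 and 101 CPM in those KO replicates and 176, 155 and 132 CPM in those WT replicates. Within WT, Prkab1 (180, 165 and 161 CPM) and Stk11 (244, 237 and 213 CPM) had the same order. So did Strada (20.1, 18.6 and 16.5 CPM), whose groups overlapped, and Cab39 (144, 128 and 122 CPM), which was higher in KO. The remaining members broke it, with Cab39l at 67.5, 67.7 and 54.7 CPM, Prkaa1 at 98.7, 103 and 80.0 CPM, and Prkag1 at 180, 181 and 148 CPM. Prkab2 (10.3, 13.2 and 10 CPM) and Prkaa2 (0.719, 0.955 and 2.17 CPM) broke it as well. The share of all genes with this order was not counted. In KO replicates 5, 4 and 6 Cab39 (190, 176 and 174 CPM) and Cab39l (53.4, 52.0 and 51.7 CPM) had the marker order. Prkab1, Stk11 and Strada did not, at 151, 144 and 145 CPM for Prkab1 and 204, 208 and 179 CPM for Stk11. Strada was at 18.3, 19.6 and 16.6 CPM there. The part of erythroid content in these differences was not tested.

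Stk11, the LKB1 kinase itself, measured 208, 204 and 179 CPM in KO, against 244, 213 and 237 CPM in WT. The groups did not overlap, but KO replicate 4 and WT replicate 2 were close. The log2 change of -0.23 (SE 0.10) did not pass (adjusted p = 0.304, edgeR), and its introns gave -0.03 (SE 0.14). Stk11 shares exonic positions with Cbarp on the opposite strand in the annotation.

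Strada, the alpha form of STRAD, showed no separation. Its longest annotated UTR holds both miR-144-3p sites shown above, but that UTR belongs to a transcript with a short coding part. It measured 19.6, 18.3 and 16.6 CPM in KO and 20.1, 16.5 and 18.6 CPM in WT, a log2 change of -0.02 (SE 0.12, adjusted p = 0.996, edgeR). The sign was not stable to scaling, at 0.08 with library size alone. Strada also had the highest intron share of the members, 54.0% to 57.6% in KO and 51.6% to 63.9% in WT, and its annotation shares exonic positions with Ccdc47 on the same strand. Ccdc47 measured 106 ± 6.41 CPM in KO and 103 ± 1.5 CPM in WT (SD), well above Strada. The Strada values, and the Stradb share that uses them, are uncertain to that extent. Stradb made up 79.8%, 83.0% and 82.4% of the STRAD level per kb in KO, against 87.1%, 86.0% and 86.5% in WT, again without overlap.

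Prkaa1 encodes the alpha1 catalytic subunit, which accounted for nearly all alpha subunit RNA. It measured 119, 113 and 111 CPM in KO, against 98.7, 80.0 and 103 CPM in WT. All KO libraries were higher, with WT replicate 2 the lowest library. The log2 change of 0.28 (SE 0.11) did not pass (adjusted p = 0.256, edgeR). It passed once the hepatocyte marker level entered the fit (0.32, adjusted p = 0.00726, edgeR), as did Cab39, Cab39l and Stradb, in a fit that called 17.3% of all genes. Prkaa1 introns measured 88.1, 71.0 and 68.3 CPM in KO and 90.9, 84.0 and 57.4 CPM in WT, with overlap, and gave -0.03 (SE 0.20).

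Prkaa2, the alpha2 subunit of muscle and liver, was at the edge of detection, with 49, 39 and 61 counts in KO and 24, 76 and 23 counts in WT. That was 1.04, 0.930 and 1.48 CPM in KO and 0.719, 2.17 and 0.955 CPM in WT. The highest library of each group was the one highest in hepatocyte markers, KO replicate 6 and WT replicate 2. The log2 change was -0.16 (SE 0.45, adjusted p = 0.964, edgeR), and it was 0.28 without those libraries and 0.47 without WT replicate 2 alone. Introns of Prkaa2 held 0 to 4 counts and were not tested.

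Prkab1, the beta1 subunit, measured 144, 151 and 145 CPM in KO, against 180, 161 and 165 CPM in WT. The KO libraries were close together, and all were below WT. The log2 change of -0.20 (SE 0.07) did not pass (adjusted p = 0.242, edgeR). Its introns were nearly equal in both groups, at 343 ± 9.69 CPM in KO and 350 ± 5.62 CPM in WT (SD), a change of -0.03 (SE 0.11). The beta2 subunit Prkab2 measured 11.7, 8.21 and 11 CPM in KO and 10.3, 10 and 13.2 CPM in WT, with overlap (log2 change -0.12, SE 0.19). Prkab1 made up 95.3% to 96.8% of the beta level per kb in KO and 95.4% to 96.7% in WT, so the make-up of the beta pool overlapped between groups.

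Prkag1, the gamma1 subunit, had the highest level per kb of the members and the change nearest to 0. It measured 179, 172 and 155 CPM in KO and 180, 148 and 181 CPM in WT, a log2 change of -0.01 (SE 0.11, adjusted p = 0.998, edgeR). Its sign turned positive under library size alone (0.09). Of the other gamma genes, Prkag2 amounted to 1.51% to 1.97% of the summed gamma1 and gamma2 level per kb in KO and 1.41% to 2.21% in WT, and Prkag3, the gamma3 subunit of skeletal muscle, had 1 or 2 counts per library in KO and 0 or 1 in WT. The AMPK RNA of these livers was mainly alpha1, beta1 and gamma1 in both groups.

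**Figure D3:**
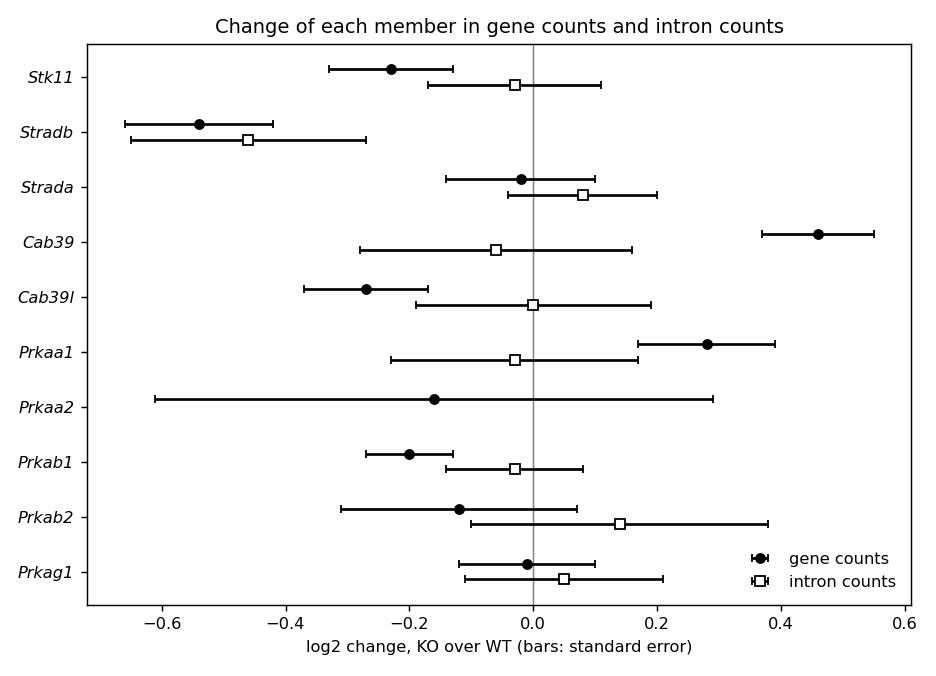
Log2 change in KO over WT for each member in gene counts (filled circles) and intron counts (open squares), with bars of 1 standard error. Cab39 stands at 0.46 in gene counts and -0.06 in introns, while Stradb stands at -0.54 and -0.46; Prkaa2 has no intron value.

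Taken over the 10 members, which all passed the filter on low counts, 1 was called higher and 0 lower, with a median log2 change of -0.14 beside -0.03 for all tested genes. Groups did not overlap for 2 higher members (Cab39 and Prkaa1) and 4 lower ones (Cab39l, Stk11, Stradb and Prkab1), where 11.8% of tested genes were higher and 10.9% lower without overlap. By edgeR's p before adjustment, 2 members were higher and 3 lower below 0.05, beside 7.77% and 8.78% of tested genes. DESeq2 called 2 members, Cab39 higher (4.34% of genes were) and Stradb lower. No member was called in intron counts by edgeR, where 0.72% of 11803 genes were (28 higher and 57 lower). With a library left out those counts ran between 4 higher and 6 lower (without WT replicate 2) and 27 higher and 121 lower (without WT replicate 3), with 0 members called. Stradb alone had an intron p below 0.05 before adjustment, beside 10.8% of genes, and DESeq2 called 0 members there, beside 3.49% of genes.

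**Figure D4:**
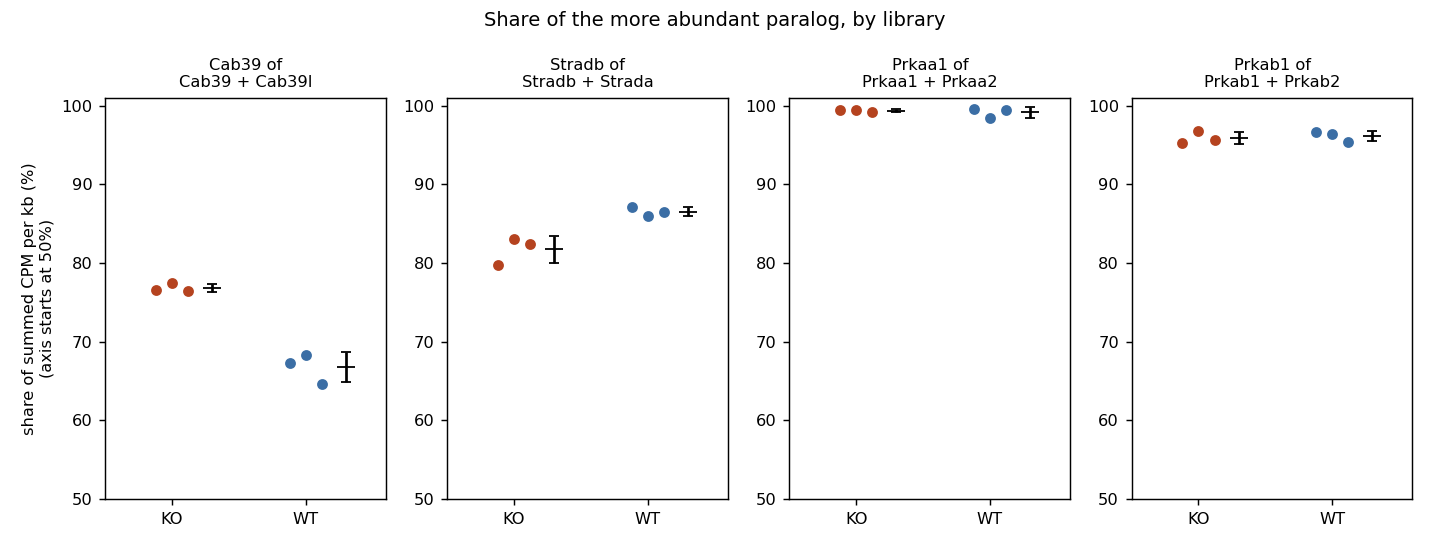
Share (%) of the more abundant paralog in the summed CPM per kb of each pair, by library, KO left of WT, with points for libraries and a bar for the mean and SD of 3; the axis starts at 50%. The Cab39 share is 76.5% to 77.4% in KO and 64.6% to 68.3% in WT, and the Prkaa1 and Prkab1 shares overlap between groups.

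Ranked by CPM per kb of annotated exon, the members spanned a wide range. Prkag1 was highest (77.6 ± 5.69 in KO and 78.0 ± 8.80 in WT, SD), followed by Prkab1 (47.8 ± 1.29 in KO and 55.0 ± 3.34 in WT) and Stk11 (43.1 ± 3.40 in KO and 50.5 ± 3.58 in WT). Prkab1 and Stk11 overlapped in WT but not in KO. Next, in KO, came Cab39 (25.5 ± 1.17) and Prkaa1 (24.5 ± 0.873), which overlapped each other, and then Stradb (14.7 ± 1.27), below both. In WT the order was Stradb (21.3 ± 3.02), Prkaa1 (20.2 ± 2.63) and Cab39 (18.5 ± 1.59), and the ranges of all 3 overlapped. Cab39 thus ranked 4 of 10 in KO and 6 of 10 in WT. Cab39l, Strada, Prkab2 and Prkaa2 followed in that order in both groups, down to 0.144 ± 0.0362 in KO and 0.161 ± 0.0975 in WT for Prkaa2. The order depended on the length used. With the longest coding transcript, KO had Cab39 (47.4 ± 2.18), Stradb (36 ± 3.11) and Prkaa1 (24.5 ± 0.873), without overlap. WT then had Stradb (52.2 ± 7.4), Cab39 (34.4 ± 2.96) and Prkaa1 (20.2 ± 2.63), also without overlap. By that length Cab39 ranked 4 in KO and 5 in WT, Cab39l ranked above Prkaa1 in WT, and Prkab1 and Stk11 overlapped in neither group.

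**Figure D5:**
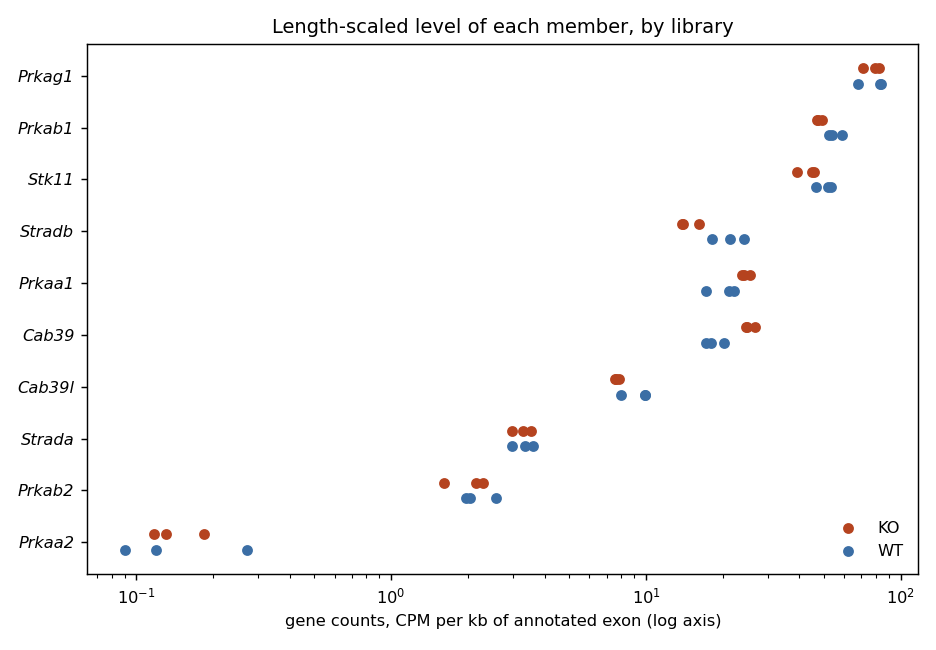
Gene counts per kb of annotated exon (CPM per kb, log axis) of each member in each library, KO above WT in each row. Prkag1 (71.3 to 82.3 in KO, 67.8 to 83.3 in WT) is at the top, and Prkaa2 (0.117 to 0.185 in KO, 0.0902 to 0.272 in WT) is at the bottom.

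Among 10542 tested genes of at least 5 CPM, the genes whose levels over the 6 libraries were most like those of Cab39 included St3gal2 (Pearson's r 0.9985), Ttc5 (0.9978), Lemd3 (0.9972) and 4933407C03Rik (0.9959). This is a description of 6 values in which KO and WT stand apart. St3gal2, a sialyltransferase gene, was also called higher (204 ± 17.9 CPM in KO and 126 ± 14.5 CPM in WT, SD, log2 change 0.70, adjusted p = 0.0310, edgeR). Of the members Prkaa1 was nearest to Cab39 (0.84, rank 1048), and Stradb was farthest (-0.69).

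The MO25 scaffold also binds and activates STE20-type kinases. Of 5 such genes tested, 0 passed by edgeR, 1 had a p below 0.05 before adjustment, beside 16.6% of all genes, and the median log2 change was 0.01. Stk24, which encodes the kinase MST3, measured 175 ± 6.10 CPM in KO and 136 ± 16.3 CPM in WT (SD, log2 change 0.36, adjusted p = 0.141, edgeR), and DESeq2 called it higher (adjusted p = 0.0197), as it did 4.34% of all genes. Stk25 measured 79.7 ± 4.04 CPM in KO and 79.4 ± 3.55 CPM in WT, and Oxsr1, a regulator of ion cotransporters, measured 98.0 ± 3.93 CPM in KO and 98.3 ± 10.2 CPM in WT (SD).

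LKB1 also activates the AMPK-related kinases. Of 12 such genes 10 were tested and 0 passed by edgeR. Before adjustment 2 were higher and 2 lower below 0.05, beside 7.77% and 8.78% of all genes, and the median was 0.06. Sik2, a salt-inducible kinase, measured 53.2 ± 3.02 CPM in KO and 68.4 ± 6.05 CPM in WT (SD, log2 change -0.36, adjusted p = 0.105, edgeR). The microtubule-affinity kinase gene Mark3 measured 100 ± 6.04 CPM in KO and 128 ± 17.4 CPM in WT (-0.35, adjusted p = 0.190, edgeR), and Mark2 gave -0.05. DESeq2 called 2 of the 10, beside 8.66% of all genes: Sik2, and Sik3, which was chosen after its values were seen and had a log2 change of 0.43 by edgeR.

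Of 12 tested genes for other AMPK subunits, upstream kinases and regulators, 0 passed by edgeR. Before adjustment 2 were higher and 1 lower below 0.05, beside the same 7.77% and 8.78%, and the median was -0.07. Fnip2, a partner of folliculin, measured 105 ± 6.20 CPM in KO and 138 ± 22.2 CPM in WT (SD, log2 change -0.40, adjusted p = 0.186, edgeR). The kinase gene Map3k7 gave -0.15 and the phosphatase gene Ppm1a gave -0.13. DESeq2 called 2 of the 12, beside 8.66% of all genes: Flcn and Sesn1, both chosen after their values were seen, with log2 changes of 0.35 for Flcn and 0.42 for Sesn1 by edgeR.

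Of 20 AMPK substrates and effectors, 1 rose and 0 fell by edgeR, beside 1.83% and 1.45% of all genes, with a median log2 change of 0.02. Before adjustment 3 were higher and 1 lower below 0.05, beside 7.77% and 8.78% of all genes. DESeq2 called 2 of the 20, beside 8.66% of all genes: Lipe, and Tsc2, which was chosen after its values were seen and had a log2 change of 0.39 by edgeR (adjusted p = 0.122). Lipe, which encodes hormone-sensitive lipase, measured 12.6, 14.8 and 14.3 CPM in KO, against 8.36, 8.53 and 8.06 CPM in WT. Every KO library was well above the WT libraries, which were nearly level. The log2 change was 0.74 (SE 0.12, adjusted p = 0.0314, edgeR), and the adjusted p was 0.0822 to 0.143 by edgeR without KO replicate 4, 5 or 6 or WT replicate 1 or 3. The mitochondrial fission factor gene Mff gave 0.17 and the transcription factor gene Foxo3 gave -0.06. Eef2k, a kinase that slows translation elongation, measured 175 ± 18.5 CPM in KO and 236 ± 38.2 CPM in WT (SD, -0.43, adjusted p = 0.208, edgeR). Its introns differed more than its gene counts (-1.04, adjusted p = 0.0562, edgeR). That difference did not pass, as edgeR's exon against intron test called 0 of 11100 genes. The unadjusted p of Eef2k there was 0.0301, beside 3.17% of genes under 0.05.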

How the data were processed

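The authors deposited raw counts per gene symbol in 2 tables, and exon counts equal the gene counts for all 15543 genes of the exon and intron table. Per the submitters' processing notes, STAR and HTSeq were used, with builds NCBIM37 and mm10. The sources used here do not give strand setting, gene models or intron definition. The gene table held 0 globin (Hba, Hbb) or mitochondrial (mt-) symbols, so library sizes leave these out. Same-group libraries differed beyond sampling noise (chi-square per degree of freedom 17.8 to 168).

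The groups were compared with edgeR 4.0.16 (R 4.3.3): TMM scaling, filterByExpr (minimum count 10, minimum total 15), quasi-likelihood F test, Benjamini-Hochberg over all tested genes, threshold 0.05. SEs were derived from the F statistic. Alternatives used DESeq2 1.42.0, limma 3.58.1, other scalings and filters, a hepatocyte covariate and left-out libraries. Exon and intron columns were scaled separately and fitted together with a term per sample. The edgeR fit of gene counts and the edgeR fit of exon against intron were also run on simulated counts. Symbols were matched to GENCODE M21 (GRCm38), 29219 by the same and 2159 by an older symbol. Exon lengths and UTRs come from it, and the tables' own gene models may differ.

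The members, gene lists and tests were chosen with earlier results of these data known. Named list genes are those past the threshold and the 3 most highly expressed others of each list, and the 5 genes most like Cab39 by Pearson's r, of which 1 is not reported here. Outside that rule, Sik3, Flcn, Sesn1 and Tsc2 are named for their DESeq2 calls, Epb4.2 and Tfrc as the erythroid markers called, and Prkag2 and Prkag3 as the other gamma subunits.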

Additional observations from a re-analysis of the deposited data

How the results depend on the processing

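No paired analysis was run. WT libraries are numbered 1 to 3 and KO libraries 4 to 6, and these numbers give no pairs. Whether samples were paired by litter or handling cannot be told from them. Genes called higher in KO numbered 276 and lower 219. They were 5 to 483 higher and 7 to 1012 lower with a library left out, 655 and 652 by DESeq2, 1305 and 1312 with the hepatocyte covariate, and 580 and 838 without both libraries highest in hepatocyte markers. Library size alone gave 551 higher, or 68.8% of calls beside 55.8%, and moved the median log2 change of all genes to 0.06 from -0.03.

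Members called numbered 1, and 0 to 3 with a library left out, 0 without the low-count filter, 0 by limma-voom, 2 by DESeq2, 4 with the covariate and 3 without both hepatocyte-high libraries. The 3 were Cab39, Cab39l and Stradb. For these and the list counts below, 3.28% of all genes were called in the main fit, and 0.0782% to 9.77% with a library left out. The share was 1.83% without the filter, 3.24% by limma-voom, 8.66% by DESeq2, 3.46% with RLE factors and 5.3% with library size alone. It was 17.3% with the covariate and 9.41% without both libraries. LKB1-activated kinases called numbered 0, and 0 to 4 with a library left out, 2 by DESeq2, and 4 both with the covariate and without both libraries. AMPK regulators called numbered 0, and 0 to 3 with a library left out, 2 by DESeq2, 1 with RLE factors, 2 with library size alone, 5 with the covariate and 3 without both libraries. AMPK substrates called numbered 1, and 0 to 2 with a library left out, 2 by DESeq2, 2 with library size alone, 5 with the covariate and 3 without both libraries. CAB39-binding kinases called numbered 0, and 1 by DESeq2, with library size alone, with the covariate and without both libraries. The Cab39 change was 0.41 to 0.53 with a library left out, 0.50 without the filter and 0.46 by limma-voom, past the threshold in neither of those 2 fits. Causes were not tested.

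Signs turned for values near 0. Without the filter, gene counts gave 0.02 for Strada, 0.03 for Prkag1 and 0.03 for Oxsr1. DESeq2 gave 6.4e-04 for Prkag1 and 2.4e-03 for Oxsr1, and RLE factors gave 4.9e-04 and 2.1e-03. Library size alone gave 0.08 for Strada, 0.09 for Prkag1, 0.05 for Mark2, 0.04 for Foxo3 and 0.09 for Oxsr1. The covariate gave 0.01 for Strada, 0.03 for Prkag1 and 0.02 for Oxsr1. Without both libraries Prkaa2 was 0.28 and Stk25 -0.05. With a library left out, gene count changes were -0.09 to 0.05 for Strada, -0.45 to 0.47 for Prkaa2, -0.23 to 0.02 for Prkab2, -0.10 to 0.04 for Prkag1, -0.12 to 0.02 for Mark2, -0.15 to 0.03 for Foxo3, -0.09 to 0.05 for Oxsr1 and -0.04 to 0.03 for Stk25.

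Exon against intron calls numbered 0 in 8 alternatives, 44 higher and 106 lower without WT replicate 3, 37 higher and 2 lower by DESeq2, and 9 higher with no term per sample. Intron changes with a library left out were -0.27 to 0.11 for Cab39, -0.18 to 0.14 for Cab39l, -0.12 to 0.06 for Stk11, -0.01 to 0.11 for Strada, -0.24 to 0.10 for Prkaa1 and -0.11 to 0.17 for Prkag1. Cab39l introns were -0.03 without the filter, by DESeq2 and with RLE factors. Library size alone gave 0.01 for introns of Stk11, Prkaa1 and Prkab1. The exon minus intron change was -0.32 to 0.11 for Stradb and -0.15 to 0.16 for Prkag1 with a library left out, and 7.1e-04 for Prkag1 with library size alone. With longest coding transcripts as lengths, the Cab39 share was 73.3% in KO and 62.3% in WT, the Stradb share 87% and 90.5%, and the Prkab1 share 97.1% and 97.3%. Counting 8mers alone left 0 members with a miR-451a site, and 7mer-A1 sites gave 3 with a miR-144-3p site. Depth limits Prkaa2 most, with 23 to 76 counts.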
